A study of Bos indicus with 12 samples.

Results

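The endometrial transcripts of 4 mitochondrial respiration genes, NDUFB3 (ENSBTAG00000012760), ATP5F1 (ENSBTAG00000006441), ATP5J (ENSBTAG00000000605) and IDH3B (ENSBTAG00000018813), were followed in 12 suckled anestrous cows. They are 4 of the 24616 gene IDs in the deposited count table, and all 4 were among the 14814 genes left by the filter that the study describes (normalized counts averaging over 5 and over their own SD). That number differs from the one the study states for its filter, for a reason that could not be resolved. The study selected the 4 genes on these same 12 cows, as transcripts lower after estradiol cypionate (ECP), so their ECP against CON difference is given as a description with no test. Later pregnancy, plasma progesterone (P4) and the correlations among the genes within each treatment group were not used to select them and were tested.

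All cows were healthy multiparous Nelore (Bos indicus) in anestrus, and each gave 1 library from a biopsy of the uterine body taken on D 6, 6 d after induction of ovulation. Every cow had received 2 mg of estradiol benzoate with an intravaginal P4 device for 8 d, cloprostenol at device removal, and 10 μg of buserelin followed at once by timed insemination 48 h after removal. The 6 ECP cows also received 1 mg of ECP when the device came out, and the 6 CON cows received nothing more. The study chose ECP cows that displayed estrus and CON cows that did not, with similar follicle diameter and P4, so treatment and estrus cannot be told apart here. The study also chose cows by later pregnancy so that both outcomes were present in each group. Each group held 3 cows that were later pregnant and 3 that were not.

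NADH dehydrogenase, complex I of the respiratory chain, takes electrons from NADH and pumps protons across the inner mitochondrial membrane, and ATP synthase uses the returning protons to make ATP. The citric acid cycle in the matrix supplies the NADH. NDUFB3 is an accessory subunit of complex I, ATP5F1 is subunit b of the peripheral stalk of ATP synthase, ATP5J is coupling factor 6 of the same stalk, and IDH3B is a subunit of the NAD-dependent isocitrate dehydrogenase of the cycle. All are encoded in the nucleus. The endometrium of early diestrus is a mixture of epithelium, stroma, vessels and leukocytes under rising P4, and in such bulk tissue fewer cells of a type and less RNA per cell cannot be told apart.

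Total counts per cow ran from 8637917 (ECP cow E1010) to 15015055 (ECP cow D160). Counting error alone contributed a coefficient of variation of 4.46% for NDUFB3 and of 2.23% to 2.62% for the other members. The variation between cows fitted by edgeR was 10.3% to 12.8%, values drawn towards those of genes of similar abundance. The observed SD within groups was 0.08 (ATP5F1) to 0.15 (NDUFB3) log2 units. The read table of the study splits the libraries into 6 with a lower and 6 with a higher share of mapped reads, 3 of each treatment in each class. With treatment in the model, the members were 0.04 to 0.13 higher on the log2 scale in lower mapping libraries, none of them past an adjusted p of 0.10 (edgeR adjusted p 0.772 to 0.921, where 1 of all genes, 0.00675%, was called). Tissue identity could be checked only in part. Of 19 listed markers of endometrial cell types only 3, all leukocyte genes from the gene list of the study, could be matched to a single ID. The markers of epithelium, stroma, endothelium and smooth muscle were not analysed here.

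All 4 members had lower normalized counts in ECP than in CON cows, and the separation was widest for the complex I subunit. Counts are normalized for library size with DESeq2 size factors. They compare cows within 1 gene and not 1 gene with another, since no transcript lengths were used. In CON, NDUFB3 had 508 to 679.9 normalized counts with a median of 577 (n = 6), and in ECP it had 379 to 477 with a median of 398 (n = 6). The groups did not overlap, with ECP cow B0646 highest and C317 lowest in ECP. The fitted log2 difference, ECP over CON, was -0.46 (SE 0.09), a fold of 0.725.

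Both stalk subunits of ATP synthase were lower in ECP by smaller amounts. In CON, ATP5F1 had 2028 to 2324 normalized counts (median 2126), against 1740 to 1952 (median 1796) in ECP, with no overlap. Its log2 difference of -0.24 (SE 0.07) was the smallest of the 4 and its spread was the narrowest. In CON, ATP5J had 1413 to 1797 (median 1599), against 1139 to 1423 (median 1264) in ECP. Here the groups touched, because ECP cows B0646 at 1423 and X156 at 1415 stood just above CON cow E0819 at 1413. The log2 difference of ATP5J was -0.32 (SE 0.09).

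IDH3B, of the citric acid cycle, had 1588 to 1992 normalized counts in CON with a median of 1768, against 1290.0 to 1578 in ECP with a median of 1498. The groups did not overlap, though the gap between ECP cow D160 at 1578 and CON cow 1814 at 1588 was narrow. The log2 difference was -0.28 (SE 0.08). Thus 3 of the 4 members had every ECP cow below every CON cow, a pattern that 0.304% of all genes tested showed, and nothing is read from that count because the genes were chosen by this contrast. In all 4 genes the 6 ECP cows lay below the CON mean. By the edgeR quasi-likelihood test 0% of all genes were called between ECP and CON at an adjusted p of 0.10, with 1295 genes at an unadjusted p under 0.05 and 96 genes called by DESeq2.

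**Figure D1:**
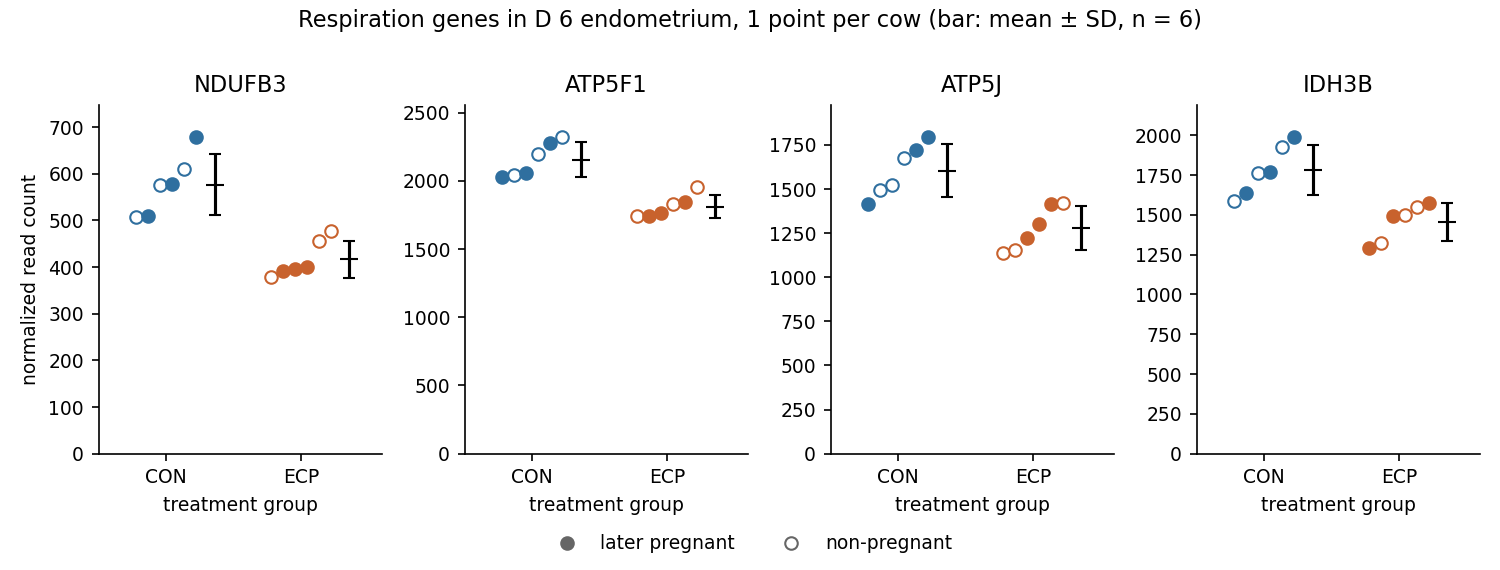
Normalized read counts of NDUFB3, ATP5F1, ATP5J and IDH3B in each cow, with treatment group on the x axis, filled points for later pregnant and open points for non-pregnant cows, and a bar for the mean ± SD of 6 cows; each y axis starts at 0. ECP points lie below CON points for 3 genes and touch them for ATP5J, while filled and open points are mixed within each group.

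The ECP against CON difference was negative in each subset of cows. For NDUFB3, ATP5F1 and IDH3B no other sign was possible, because the groups did not overlap. The groups only touched for ATP5J, which was chosen by the same contrast. Nothing is therefore read from the shared sign, and the sizes are given as a description. In later pregnant cows alone the log2 differences were -0.56 for NDUFB3, -0.24 for ATP5F1, -0.31 for ATP5J and -0.30 for IDH3B. In non-pregnant cows alone they were -0.37, -0.25, -0.33 and -0.27 in the same order. Library class moved them more. ATP5J stood at -0.42 among lower mapping and -0.23 among higher mapping libraries, IDH3B at -0.39 and -0.18, and NDUFB3 at -0.58 and -0.36, whereas ATP5F1 stood at -0.23 and -0.27. Whether the difference itself depends on library class was not tested. The 3 leukocyte genes moved in the same direction as the members: the sum of CD244, ALOX5 and AMICA1 was 295 to 401 normalized counts in CON with a median of 364, against 207 to 285 in ECP with a median of 231. Those genes were chosen by the same contrast, and their part in the members' difference was not tested.

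The ratio of 1 member to another within a cow was compared next. The ratio of NDUFB3 to ATP5F1 normalized counts was 0.268 ± 0.0323 (SD, n = 6) in CON and 0.230 ± 0.0146 in ECP, and that of NDUFB3 to IDH3B was 0.324 ± 0.0257 and 0.287 ± 0.0254. The ratio of ATP5J to IDH3B was 0.902 ± 0.0523 in CON and 0.883 ± 0.127 in ECP, and its log2 difference of -0.04 was smaller than the spread between cows, 0.15. These ratios rest on the contrast that selected the genes and carry no test.

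Between cows of 1 treatment group the members varied little. The within-group SD of log2 CPM (the count scaled to library size) was 0.15 for NDUFB3, 0.08 for ATP5F1, 0.14 for ATP5J and 0.12 for IDH3B. The median over all genes tested was 0.27, and it was 0.18 over the 4415 genes in the same range of mean expression. The members were selected on the separation of the groups, so their narrow spread is given as a description.

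Later pregnancy was the first comparison that the study's selection of the genes did not use, and it did not separate the members. NDUFB3 had 391 to 679.9 normalized counts in the 6 cows that were later pregnant (median 454) and 379 to 609.8 in the 6 that were not (median 492). ATP5F1 had 1741 to 2274 (median 1934) and 1740 to 2324 (median 1999). The ranges of ATP5F1 nearly coincided, and those of NDUFB3 shared their lower part. ATP5J had 1225 to 1797 in pregnant cows (median 1414) and 1139 to 1675 in non-pregnant cows (median 1459.5), and IDH3B had 1290.0 to 1992 (median 1608) and 1324 to 1924 (median 1569). Pregnant and non-pregnant cows overlapped for every member.

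With treatment in the model, the fitted log2 differences, pregnant over non-pregnant, were small and of both signs. That of NDUFB3 was -0.04 (95% interval -0.25 to 0.17) and that of ATP5F1 was -0.05 (-0.19 to 0.10). ATP5J differed by 0.08 (-0.11 to 0.27) and IDH3B by 0.02 (-0.16 to 0.20). None of the 4 passed the edgeR quasi-likelihood test (Benjamini-Hochberg adjusted p 0.9997 each), and 0% of all genes did. At an unadjusted p under 0.05 there were 481 genes, 3.25% of those tested and none of them a member, and DESeq2 also called 0 genes. The intervals allow differences of up to 0.27 in size.

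The pregnancy difference was then taken within each treatment group, 3 cows against 3. In CON the 3 pregnant cows had 510, 578 and 679.9 normalized counts of NDUFB3, and the 3 non-pregnant cows had 508, 576 and 609.8. In ECP the 3 pregnant cows had 391, 396 and 399, and the 3 non-pregnant cows had 379, 457 and 477. The pregnant ECP cows were therefore close together, with the non-pregnant cows on both sides of them. The log2 difference of NDUFB3 was 0.06 (SE 0.14) in CON and -0.14 (SE 0.14) in ECP, and the interaction was -0.20 (95% interval -0.62 to 0.22; edgeR adjusted p = 0.941). For the other members the interaction lay between -0.03 and 0.02 (adjusted p 0.992 to 0.997), with intervals that together reached from -0.41 to 0.42. By edgeR 0% of genes were called within CON, within ECP or for the interaction, against 13, 12 and 13 genes by DESeq2, none of them a member. At an unadjusted p under 0.05 edgeR had 604, 672 and 777 genes.

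**Figure D2:**
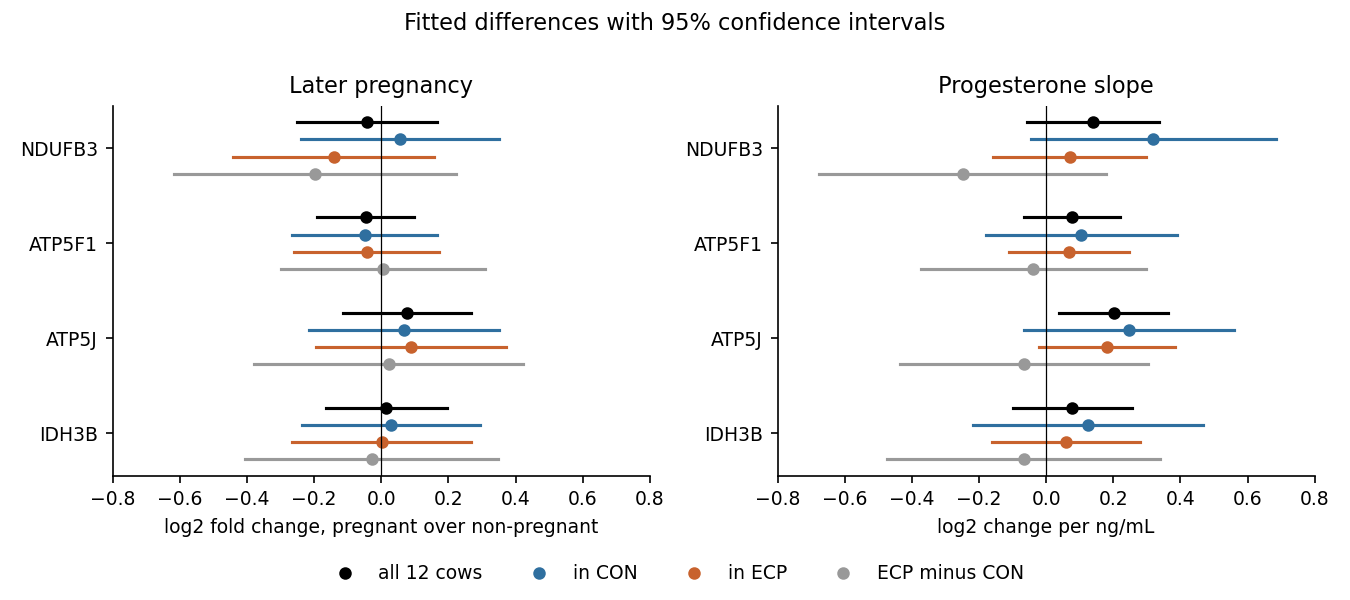
Fitted differences of the 4 genes with 95% confidence intervals; the left panel has the log2 fold change of later pregnant over non-pregnant cows and the right panel the log2 change per ng/mL of progesterone, in all 12 cows with treatment in the model (black), in CON (blue), in ECP (orange) and as ECP minus CON (grey). Every interval crosses 0 but that of the ATP5J slope over all 12 cows, 0.04 to 0.36.

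Within each treatment group most pairs of members had a correlation above 0 from cow to cow, though no single one passed the correction for 12 tests. Pearson r of log2 CPM was above 0 in 5 of 6 pairs in CON (median 0.50, -0.22 to 0.88) and in 5 of 6 pairs in ECP (median 0.44, -0.12 to 0.81). Over all 109719891 pairs of genes tested, the median r was near 0 in both groups and 49.9% of pairs in CON were above 0, as were 49.98% in ECP. The CON median was 0.29 with library class means taken off and 0.26 without E0819, and the ECP median was 0.23 without C317. The pairs share cows, library sizes and members, so they are not independent of each other.

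In CON the complex I subunit went with coupling factor 6. NDUFB3 and ATP5J had r = 0.88 (exact permutation p = 0.0181, Benjamini-Hochberg adjusted over the 12 correlations 0.217; Spearman rho 0.94, exact p = 0.0167, adjusted 0.200; n = 6). Cows E0040, E0406 and B1042 were high in both genes, and X228 and E0819 were low in both. The 3 high cows were also the 3 lower mapping libraries of CON, and with class means taken off r was 0.78. With each cow left out r was between 0.83 and 0.95, and it was 0.70 without the 2 cows farthest from the median of NDUFB3. ATP5J and IDH3B had r = 0.81 (exact p = 0.0722, adjusted 0.289; rho 0.77, exact p = 0.103), and 0.57 with class means taken off. NDUFB3 and IDH3B had r = 0.70 (exact p = 0.0986, adjusted 0.296; rho 0.83, exact p = 0.0583), which was 0.26 without the 2 farthest cows and 0.45 with class means taken off.

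ATP5F1 did not share this order in CON. Its r was 0.24 with NDUFB3 (exact p = 0.622), 0.29 with ATP5J (exact p = 0.568) and -0.22 with IDH3B (exact p = 0.632; adjusted 0.689 each). The rank correlations were 0.20, 0.26 and -0.26 (exact p = 0.714, 0.658 and 0.658). The value rested on single cows in both directions. Cow 1814 had the highest ATP5F1 count and the lowest IDH3B count of the group, and without it r of that pair was 0.25, whereas with library class means taken off it was -0.58. Cow E0040 was highest for the other 3 members but not for ATP5F1, and without it r with NDUFB3 was 0.83. Without E0819, the lowest CON cow in joint score, r with NDUFB3 was -0.07 and r with ATP5J was -0.10.

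In ECP another pair led. NDUFB3 and ATP5F1 had r = 0.81 (exact p = 0.0542, adjusted 0.289; rho 0.66, exact p = 0.175), which was 0.53 without cow B0646 and 0.31 without the 2 cows farthest from the median. Without E1010, the shallowest library, it was 0.93 with an adjusted exact permutation p of 0.1, at the threshold. The 2 stalk subunits of ATP synthase, ATP5F1 and ATP5J, had r = 0.58 (exact p = 0.226, adjusted 0.531; rho 0.71, exact p = 0.136), and NDUFB3 and IDH3B had r = 0.50 (exact p = 0.265, adjusted 0.531; rho 0.31, exact p = 0.564). NDUFB3 and ATP5J, the leading pair of CON, had r = 0.31 in ECP (exact p = 0.512; rho 0.60, exact p = 0.242), which turned to -0.19 without B0646. ATP5J and IDH3B had r = -0.12 (exact p = 0.744; rho -0.14, exact p = 0.803), and without X156, which was high for ATP5J and lowest of all cows for IDH3B, r was 0.37. Whether any pair differs between CON and ECP was not tested, and with 6 cows in each group single cows turned the sign of several values.

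**Figure D3:**
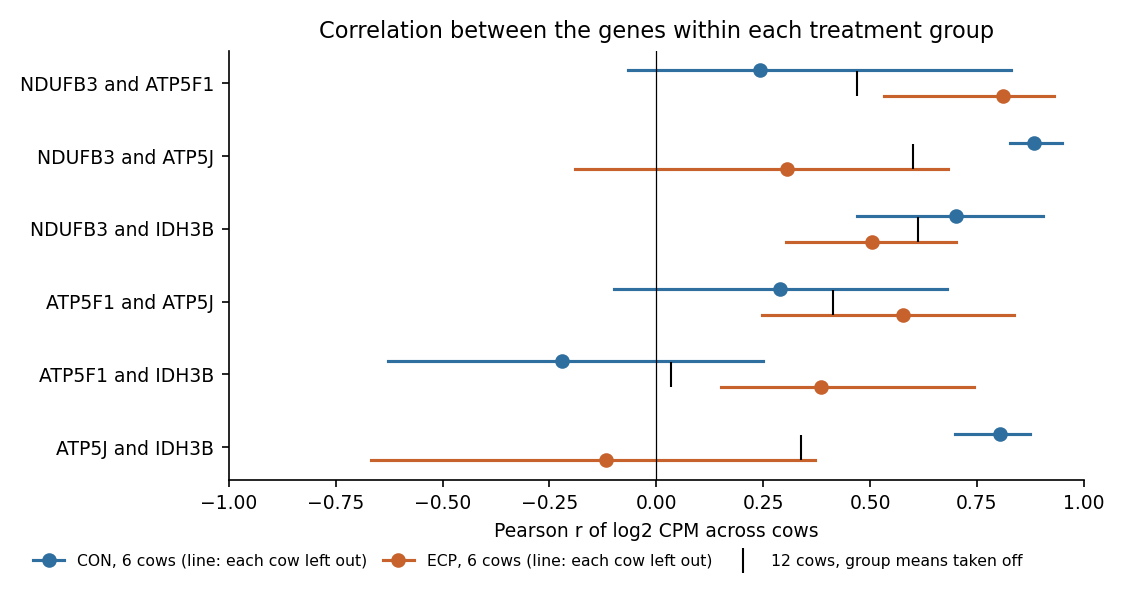
Pearson r of log2 CPM for the 6 pairs of the 4 genes, in 6 CON cows (blue) and 6 ECP cows (orange), with a line from the lowest to the highest r when each cow is left out in turn and a black tick for all 12 cows after the group means were taken off. The lines are short for NDUFB3 with ATP5J and for ATP5J with IDH3B in CON and cross 0 for 3 pairs in CON and 2 in ECP.

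With the group means taken off, all 12 cows could be used at once. Every pair then had an r above 0, from 0.03 for ATP5F1 and IDH3B to 0.61 for NDUFB3 and IDH3B (permutation within groups, p = 0.0477, adjusted over 6 pairs 0.158; rho 0.58, p = 0.0720). NDUFB3 and ATP5J followed with r = 0.60 (p = 0.0528, adjusted 0.158; rho 0.65, p = 0.0297). Without the 2 cows farthest from the median of NDUFB3 these became 0.49 and 0.33. When the library class means were also taken off they were 0.55 and 0.50, and that of ATP5F1 and IDH3B was -0.08. No pair passed the correction.

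The joint score of a cow was the mean over the 4 members of log2 CPM minus the mean of each gene over the 12 cows. It is a description and carries no test. It ran from 0.02 to 0.29 in CON (mean 0.16 ± 0.10, SD, n = 6) and from -0.29 to -0.03 in ECP (mean -0.16 ± 0.09, n = 6). E0040, B1042 and E0406 had the highest scores of the 12 cows, and C317 had the lowest. The score of E0040 stands for 1.22 times and that of C317 for 0.816 times the mean level. CON cow E0819 at 0.02 and ECP cow B0646 at -0.03 almost met in the middle. That the groups did not overlap is fixed by the choice of the members. The leading principal component of the 4 genes, each scaled to the same variance, held 65.5% of their variance in CON and 58.7% in ECP. No such share was computed for other sets of genes, so these values have no background beside them. Over the 12 cows with group means taken off, the score had r = 0.17 with the sum of the leukocyte genes. It had r = 0.49 with CD244, 0.20 with ALOX5 and -0.02 with AMICA1.

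The score did not separate the cows by later pregnancy. In CON the pregnant cows scored 0.29, 0.22 and 0.02 and the non-pregnant cows 0.24, 0.14 and 0.08. In ECP the pregnant cows scored -0.15, -0.18 and -0.18 and the non-pregnant cows -0.03, -0.14 and -0.29. Pregnant ECP cows thus lay within a range that the non-pregnant ECP cows spanned on both sides, with an SD of 0.017 against 0.13. In CON the order was the reverse, with an SD of 0.14 in pregnant and 0.08 in non-pregnant cows. Neither difference in spread was tested.

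**Figure D4:**
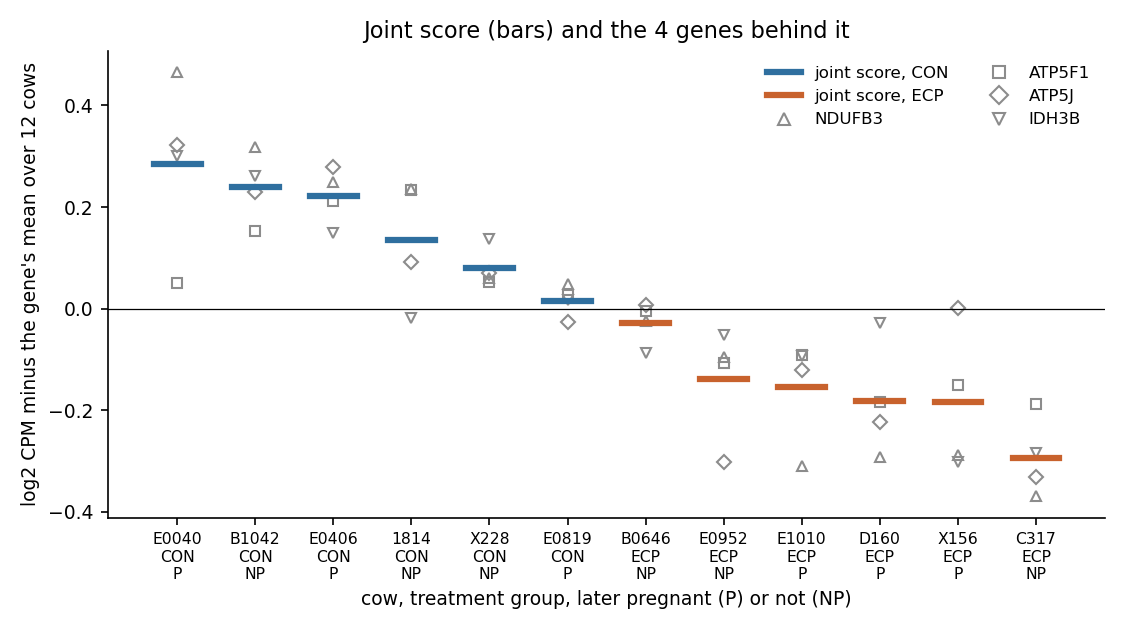
Joint score of each cow (thick lines, blue for CON and orange for ECP) and the 4 genes behind it (open symbols), as log2 CPM minus the mean of the gene over 12 cows, with cows ordered from the highest to the lowest score. CON cows lie at 0.02 and above and ECP cows at -0.03 and below, and pregnant (P) and non-pregnant (NP) cows are interleaved.

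P4, the hormone made by the corpus luteum that prepares the endometrium for the embryo, was a criterion by which cows of similar level were chosen, so its range was narrow. In CON it was 2.82 to 3.86 ng/mL with a median of 3.68, and in ECP it was 3.05 to 4.73 ng/mL with a median of 3.92. Within both groups all 4 members had a correlation with P4 above 0, of which none passed the correction. Of all genes tested, 51.3% had an r with P4 above 0 once group means were taken off. The members share cows, so their signs are not independent of each other. Over the 12 cows, with treatment in the model, ATP5J had the steepest slope at 0.20 log2 units per ng/mL (95% interval 0.04 to 0.36). It was the single member to pass an unadjusted threshold of 0.05 in edgeR, as 4.69% of all genes tested did, and its edgeR adjusted p was 0.972. By edgeR 0% of genes were called at an adjusted p of 0.10, and DESeq2 called 11 genes, none of them a member.

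The other slopes were 0.14 per ng/mL for NDUFB3 (-0.06 to 0.34), 0.08 for ATP5F1 (-0.07 to 0.22) and 0.08 for IDH3B (-0.10 to 0.26), all with an edgeR adjusted p of 0.972. With group means taken off, r with P4 was 0.75 for ATP5J, and 0.29% of the 14814 genes tested had a higher one. It was 0.51 for ATP5F1 (5.55% of genes higher), 0.51 for NDUFB3 (5.83%) and 0.34 for IDH3B (16.2%), where the median over all genes was 0.01. These shares count only genes with a higher r. In the edgeR test of the slope, which takes both signs, 229 genes had a lower unadjusted p than ATP5J. The ATP5J slope stood at percentile 85.5 of the slopes of all genes tested. The ATP5J slope was 0.18 with library class in the model, 0.19 with pregnancy in the model and 0.18 to 0.22 with each cow left out. The slope of NDUFB3 was 0.25 and that of IDH3B 0.15 without E0952, and they were 0.09 without B0646 and 0.05 without C317; that of ATP5F1 was 0.05 without B0646.

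ATP5J went with P4 in both groups. In CON r was 0.73 (exact p = 0.0667, adjusted over 8 correlations 0.226; rho 0.89, exact p = 0.0333, adjusted 0.267; n = 6), and 0.68 to 0.99 with each cow left out. It was 0.97 without the 2 cows farthest from the median P4. That left 1814, a higher mapping library, and B1042, E0040 and E0406, all lower mapping. In ECP r was 0.77 (exact p = 0.0847, adjusted 0.226; rho 0.77, exact p = 0.103), and 0.53 without the 2 farthest. The 2 ECP cows with the lowest P4, E0952 and C317, had the lowest ATP5J counts of all 12 cows, 1157 and 1139. NDUFB3 had r = 0.80 in CON (exact p = 0.0583, adjusted 0.226; rho 0.77) and 0.33 in ECP (exact p = 0.512; rho 0.20). The latter turned to -0.42 without B0646, the ECP cow with the highest P4 and the highest NDUFB3.

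For ATP5F1 r with P4 was 0.46 in CON (exact p = 0.379; rho 0.31) and 0.61 in ECP (exact p = 0.193; rho 0.60). In CON it was -0.57 without the 2 farthest cows, and in ECP 0.06 without B0646. IDH3B had r = 0.40 in CON (exact p = 0.443; rho 0.60) and 0.32 in ECP (exact p = 0.506; rho 0.09). With each cow left out the r of IDH3B ran from 0.23 (without E0040) to 0.81 (without X228) in CON and from 0.04 (without C317) to 0.72 (without E0952) in ECP. Adjusted values for these 2 genes were 0.386 or above, and the exact permutation p of the rank correlations with P4, other than that of ATP5J in CON, was 0.103 to 0.919. The slopes differed between ECP and CON by -0.25 per ng/mL for NDUFB3 (95% interval -0.68 to 0.18) and by -0.07 to -0.04 for the other members (edgeR adjusted p 0.899 to 0.988). Without X228, the CON cow with the lowest P4, these differences were -0.52 for NDUFB3, -0.48 for ATP5J and -0.47 for IDH3B. By edgeR 0% of genes were called for this difference, with 917 at an unadjusted p under 0.05 and 43 called by DESeq2.

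The joint score had an r with P4 of 0.77 in CON (rho 0.77) and 0.70 in ECP (rho 0.43), and of 0.70 (rho 0.70) over the 12 cows with group means taken off, as a description. In CON, the 3 cows of 3.79 to 3.86 ng/mL scored 0.22 to 0.29 and the 3 cows of 2.82 to 3.57 ng/mL scored 0.02 to 0.14. The first 3 were also the 3 lower mapping libraries of the group, so P4 and library class cannot be told apart in CON. In ECP the 3 lower mapping libraries had scores of -0.03, -0.15 and -0.29 at 4.73, 4.09 and 3.16 ng/mL, and the 3 higher mapping libraries had -0.18, -0.18 and -0.14 at 4.07, 3.77 and 3.05 ng/mL. With 3 cows in each class, score and P4 went together in the lower mapping ECP libraries and not in the higher mapping ones. This difference between the classes was not tested. Without B0646 the r in ECP was 0.33, without E0952 it was 0.98, and with ATP5J left out of the score it was 0.46.

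**Figure D5:**
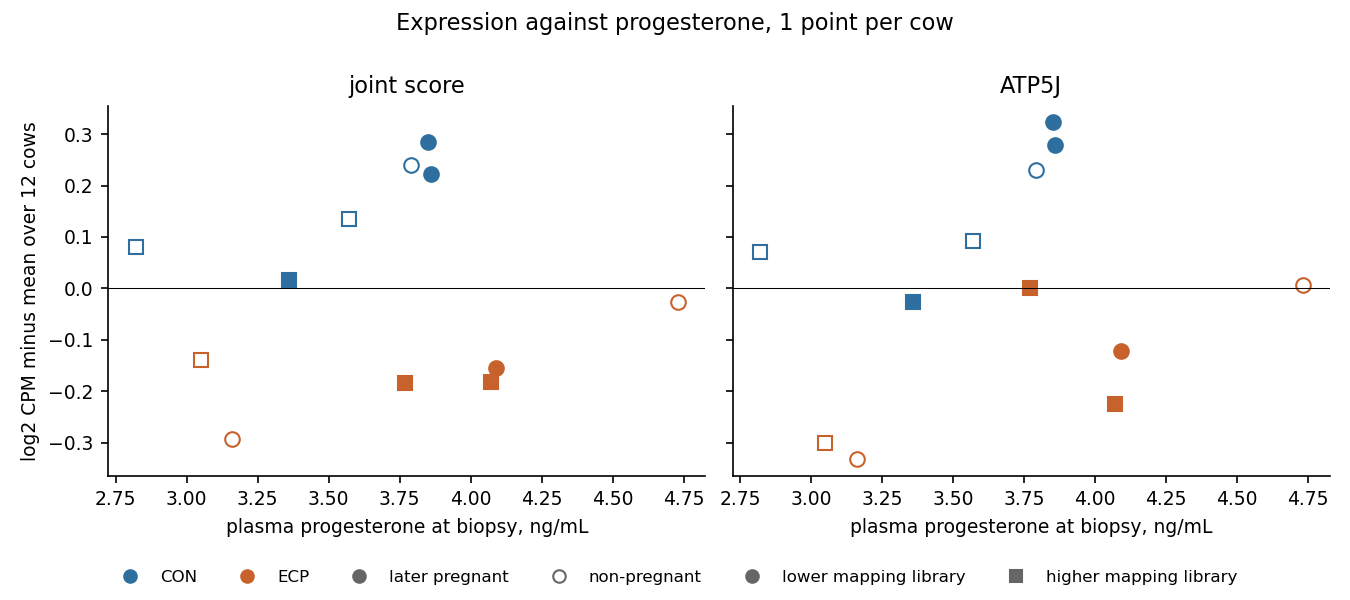
Joint score (left) and ATP5J alone (right), both as log2 CPM minus the mean over 12 cows, against plasma progesterone at biopsy in ng/mL; blue is CON, orange is ECP, filled points are later pregnant cows, circles are lower mapping and squares higher mapping libraries. The 3 CON circles near 3.8 ng/mL have the highest values, and the 2 ECP points with the lowest progesterone have the lowest ATP5J values.

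The members were not each other's nearest neighbours. Over the 12 cows with group means taken off, IDH3B stood at rank 540 and ATP5J at rank 603 of the genes most like NDUFB3. Symbols were at hand only for genes of the ECP against CON list. Among these, NAA20, a subunit of an N-terminal acetyltransferase, had r = 0.66 with NDUFB3. STRAP, of mRNA splicing complexes, had r = 0.61 with ATP5F1, ALOX5, a leukocyte lipoxygenase, had 0.60 with it, and SBNO1 had 0.68 with ATP5J. ASPN, a matrix protein of connective tissue, and GDF7, a secreted growth factor, both had r = 0.71 with IDH3B, and C18H19orf33 had 0.60 with ATP5J and 0.69 with IDH3B. The highest r of any gene was 0.91 for NDUFB3, 0.93 for ATP5F1, 0.91 for ATP5J and 0.93 for IDH3B, each with a gene ID without a symbol here. With 12 cows and 14814 genes, values of this size are the top of a long list and carry no test.

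The rest of the pathway could be described only in a small part. Of 74 listed nuclear genes of oxidative phosphorylation and 16 of the citric acid cycle, beside the members, 0 could be matched to an ID, so no count is given for them. Of 13 further mitochondrial genes, 5 had an ID through the gene list of the study, where they had been chosen by the same ECP against CON contrast. Relative to CON, their log2 differences were -0.28 for HSPE1, the co-chaperonin of the matrix, and -0.37 for MRPS31, a protein of the mitochondrial ribosome. They were -0.33 for ACSF2, an acyl-CoA synthetase, -0.49 for CCBL2, a kynurenine aminotransferase, and -0.25 for C25H16orf91. By later pregnancy 0 of the 5 passed (edgeR adjusted p 0.9997 each), and 0 of the 5 passed for P4 (adjusted p 0.972 to 0.986). Pregnant over non-pregnant, the log2 difference was 0.03 for HSPE1 (SE 0.08), 0.20 for MRPS31 (SE 0.10), 0.01 for ACSF2 (SE 0.10) and -0.32 for CCBL2 (SE 0.12). That of C25H16orf91 was -0.162 (SE 0.066). The P4 slope was -0.16 per ng/mL for ACSF2 (SE 0.09) and -0.106 for C25H16orf91 (SE 0.075). Both were of the other sign than the members. The slope was -0.05 to 0.04 for HSPE1, MRPS31 and CCBL2.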

How the data were processed

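RNA-seq libraries of D 6 endometrium from 12 cows were analysed, 6 ECP and 6 CON. The authors trimmed paired reads with SeqyClean, mapped them with Bowtie2 2.1.0 to the masked bovine assembly UMD 3.1, sorted them with SAMtools 0.1.18 and counted uniquely mapped reads per Ensembl gene with HTSeq 0.5.4p2, and what they deposited is a table of raw counts, not normalized. Because multi-mapped reads were dropped, genes with near-identical copies may be undercounted. The sources used here do not give the strand setting. The submitters' processing notes also name CASAVA 1.8.2 and DESeq 1.12.1. Unassigned reads have no row in the table.

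All 14814 genes were fitted with the edgeR 4.0.16 quasi-likelihood model (R 4.3.3, TMM scaling), and p-values were Benjamini-Hochberg adjusted over all of them, with a threshold of 0.10 as in the study. The SE was the size of the log2 fold change over the root of F, and 95% intervals used the total degrees of freedom of the fit. Correlations used log2 CPM with a prior count of 2, with exact two-sided permutation over 6 cows (720 orders) or 100000 permutations within groups (Python 3.11.15, NumPy 2.4.6); figures were drawn with matplotlib 3.10.9. The fits and the permutation test were tested on simulated data. The differences planted for the fits were much larger than those of the members, so recovery of small differences was not tested. Alternatives were DESeq2 1.42.0, limma 3.58.1 (voom), other scalings and filters, other covariates, fits within each library class, and fits with every cow left out in turn. Cow labels were used as names only, and pregnancy status, P4 and treatment came from the labels.

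The members and lists were chosen with earlier results of these data known. Named genes are the 4 members, per member the 3 genes of highest r and the 3 of highest r with a symbol in the gene list of the study, and listed mitochondrial genes with an ID. Unclear symbols and IDs without one were not printed, and PAQR8, TTC7A and C28H10orf116 are named here only. SAMSN1 was left out because its ID carries a second symbol. The planned search for promoter motifs was not run here.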

Additional observations from a re-analysis of the deposited data

How the results depend on the processing

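The ECP minus CON difference of each member and of the joint score kept its sign under every alternative, as did the median pair correlation of each group. For the ECP minus CON difference nothing is read from this, because the members were chosen by that contrast. Counts of genes called moved from 0 under edgeR to 13 (pregnancy within CON), 12 (within ECP), 13 (interaction), 11 (P4 slope) and 43 (slope by treatment) under DESeq2. Leaving out 1 cow gave 0 to 1 genes called within CON, for the interaction and for the P4 slope.

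Among members, IDH3B by pregnancy changed sign with upper quartile scaling (-0.0010 in all cows, -0.0020 in CON), with P4 added (-0.012) and in higher mapping libraries alone (-0.077). In ECP its difference of 0.0009 became -0.0022 with DESeq2 size factors, -6.58e-05 with upper quartile scaling, -6.90e-05 with no filter, -0.0021 under DESeq2 and -0.00087 under limma voom. The IDH3B interaction turned to 0.0019 with upper quartile scaling and 0.026 with library class added, and that of ATP5F1 to -0.0012 with DESeq2 size factors and -0.0017 under DESeq2. The correlation of ATP5F1 and IDH3B in CON became 0.020 on total counts, and that of ATP5J and IDH3B in ECP 0.073 with library class means taken off. The score's r with P4 in CON was 0.64 on total counts, and in ECP 0.46 without ATP5J. On z-scores the score differed by -1.57, in SD units in place of log2.

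With each cow left out, pregnancy differences ranged from -0.11 to 0.00011 for NDUFB3 and from -0.030 to 0.051 for IDH3B. In CON they ranged from -0.067 to 0.15 for NDUFB3, -0.0095 to 0.17 for ATP5J and -0.057 to 0.099 for IDH3B. In ECP they ranged from -0.087 to 0.0055 for ATP5F1 and -0.068 to 0.077 for IDH3B. Interactions ranged from -0.038 to 0.066 for ATP5F1, -0.080 to 0.14 for ATP5J and -0.098 to 0.050 for IDH3B, and slope differences from -0.10 to 0.0077 for ATP5F1, -0.47 to 0.033 for IDH3B, -0.48 to -0.019 for ATP5J and -0.52 to -0.11 for NDUFB3. The NDUFB3 interaction ranged from -0.30 to -0.083, and the median pair r from 0.26 to 0.71 in CON and 0.23 to 0.63 in ECP. Pair correlations ranged in CON from -0.067 to 0.83 (NDUFB3 and ATP5F1), -0.099 to 0.68 (ATP5F1 and ATP5J) and -0.63 to 0.25 (ATP5F1 and IDH3B), and in ECP from -0.19 to 0.68 (NDUFB3 and ATP5J) and -0.67 to 0.37 (ATP5J and IDH3B). The r of NDUFB3 with P4 in ECP ranged from -0.42 to 0.86, and the score's r with P4 from 0.73 to 0.97 in CON and 0.33 to 0.98 in ECP. The cause of these changes was not tested.

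P4 added to the treatment model, and leaving out cows for the P4 correlations and the score, were chosen after seeing the data; with P4 added the members differed by -0.50, -0.26, -0.38 and -0.30. No paired analysis was made, because each cow gave 1 library and belonged to 1 treatment group.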
